A study of Mus musculus with 16 samples.

Results

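The 10 genes described here, Fos, Fosb, Jun, Junb, Egr1, Ier2, Atf3, Myc, Nr4a1 and Dusp1, are classical immediate early genes and were taken by symbol from a table of 23946 genes. All 10 were among the 12100 genes tested, those with at least 1 FPKM (fragments per kilobase of transcript, scaled to the mapped fragments of the library) in at least 4 of 16 libraries. The libraries were made from polyA RNA of the free wall of the right or the left ventricle of adult male FVB mice, an inbred strain, aged 10 to 13 weeks. Each ventricle had 4 sham-operated libraries, numbered 1 to 4, and 4 libraries labelled PS, numbered PS_9552, PS_9553, PS_9561 and PS_9564. The labels do not spell out PS. The protocol names only pulmonary artery banding, which narrows the outflow of the right ventricle and raises its pressure load, and the sham operation, so PS was read as banded. The labels do not give the time between operation and tissue collection, how the tissue was handled before the RNA was extracted, or whether a number shared by a right and a left library marks a mouse. The question put to these genes was whether banding moved them by more than they varied among libraries of the same group.

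Immediate early genes are transcribed within minutes of a stimulus by factors already present in the cell, such as serum response factor with its partners and the cAMP response element binding protein CREB, with no need for new protein. Most of their RNAs are short-lived, so their levels follow the recent history of a tissue and fall back quickly. In the heart they respond to stretch, neurohormones and ischaemia, and they also respond to anaesthesia, surgery and the dissociation or excision of tissue. Fos, Fosb, Jun and Junb encode subunits of the dimeric transcription factor AP-1, and Atf3 encodes a related stress-induced leucine zipper protein. Egr1 encodes a zinc finger transcription factor, Nr4a1 an orphan nuclear receptor, and Myc a basic helix-loop-helix factor that drives growth. Ier2 encodes a small nuclear protein, and Dusp1 a phosphatase that inactivates MAP kinases.

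The sequence just upstream of the start site is shown for 4 members, as examples of windows with the 5-letter core of the cAMP response element (Fos, Nr4a1 and Dusp1) and without it (Jun). Each line holds 250 bases that end just before the annotated start, 5′ to 3′ on the strand of the gene, from RefSeq on GRCm38.p6. The positions are chr12:85473640-85473889 on the plus strand for Fos, chr15:101266596-101266845 on the plus strand for Nr4a1, chr17:26508473-26508722 on the minus strand for Dusp1 and chr4:95052223-95052472 on the minus strand for Jun. Capitals mark TGACG or its reverse complement CGTCA, and a run of TGACGTCA is the full palindromic element.
Fos: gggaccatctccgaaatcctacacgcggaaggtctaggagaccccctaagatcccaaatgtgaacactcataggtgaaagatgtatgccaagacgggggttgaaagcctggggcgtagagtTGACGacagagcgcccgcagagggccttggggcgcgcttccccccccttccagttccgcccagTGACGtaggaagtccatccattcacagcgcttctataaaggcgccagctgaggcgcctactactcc
Nr4a1: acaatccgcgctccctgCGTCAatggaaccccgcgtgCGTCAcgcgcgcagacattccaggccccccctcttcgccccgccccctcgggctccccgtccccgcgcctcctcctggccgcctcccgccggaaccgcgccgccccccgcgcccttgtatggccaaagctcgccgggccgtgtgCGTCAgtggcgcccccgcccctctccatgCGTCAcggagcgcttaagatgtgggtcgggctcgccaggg
Dusp1: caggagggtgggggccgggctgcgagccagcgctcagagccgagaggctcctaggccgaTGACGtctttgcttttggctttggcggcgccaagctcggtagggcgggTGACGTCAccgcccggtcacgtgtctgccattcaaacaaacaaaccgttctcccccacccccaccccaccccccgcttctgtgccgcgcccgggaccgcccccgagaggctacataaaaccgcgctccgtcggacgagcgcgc
Jun: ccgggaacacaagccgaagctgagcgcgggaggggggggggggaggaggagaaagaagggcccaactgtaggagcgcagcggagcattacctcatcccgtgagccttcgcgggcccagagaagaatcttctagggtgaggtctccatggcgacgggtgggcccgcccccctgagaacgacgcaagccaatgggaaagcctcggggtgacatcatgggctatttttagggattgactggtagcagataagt
Windows were found for 7 of the 10 members. TGACG, searched on both strands, was present in 6 of these 7 and in 17.8% of 32851 windows of 250 bases. The full element TGACGTCA, which contains the core on each strand, was present in 1 of 7, Dusp1, against 1.55% of all windows. Neither the AP-1 site TGANTCA nor the CArG box, the binding sequence of serum response factor, was found in the 7 windows, against 6.75% and 1.47% of all windows. A match describes the letters only, and the windows end at 250 bases. Jun, without the core, varied with the other members between libraries about as closely as Nr4a1 did, and Atf3, with 1 copy, the least closely of the 10.

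In these libraries the summed level of 7 cardiomyocyte markers was between 16902 and 44555 FPKM. Estimated depth was unequal. The smallest FPKM steps gave about 3.42e+05 to 1.37e+06 fragments in the right sham libraries and 1.93e+06 to 9.51e+06 in the other groups. Summed pancreatic islet markers were 635 to 2139 FPKM in the right and 86.6 to 2092 in the left sham libraries, against 24.1 to 154 in the banded libraries of both ventricles, and the part of this in the results was not tested. With banding, 2 of 7 cardiomyocyte markers fell in the right ventricle, and 3 of 7 fibroblast, 2 of 7 smooth muscle and pericyte and 1 of 7 endothelial markers rose there by the limma test, where 4.93% of all tested genes were called lower and 10.5% higher. Without the libraries numbered PS_9553, 2 of 7 cardiomyocyte markers still fell, where 3.3% of all tested genes did. In that fit 2 of 7 fibroblast, 0 of 7 smooth muscle and pericyte and 0 of 7 endothelial markers rose, where 7.58% of all tested genes did. With 7 genes per list, 0 calls is near that share. In the left ventricle the same 2 cardiomyocyte markers, Myl2 and Tnni3, rose with banding, by 1.28 (SE 0.22) and 1.16 (SE 0.20). There 2.44% of all tested genes rose. Neither was called on the left without PS_9553, though their differences stayed at 1.21 and 1.17. No fibroblast, endothelial or smooth muscle and pericyte marker was called in the left ventricle. Rn45s, a precursor of ribosomal RNA, stood at 0 in 5 of the 8 banded libraries, 3 left and 2 right, and was at 44335 to 64943 FPKM in all sham libraries. These 5 libraries had scale factors of 1.217 to 1.285 against 0.840 to 1.02 in the others, so this split moves with banding on the deposited scale. In bulk tissue, fewer cells of a type and less RNA per cell cannot be told apart. Among genes known to respond to load, Nppa, which encodes atrial natriuretic peptide, rose in the right ventricle from 65.8 ± 25.2 to 1976 ± 475 FPKM (SD, n = 4 each).

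None of the 10 genes passed the test for banding in either ventricle. The test was a limma fit on log2(FPKM + 1) with Benjamini-Hochberg adjustment over all 12100 genes, and a gene was called where the adjusted p was at most 0.05 in 1 direction on the deposited scale and again after rescaling of the libraries to a common median ratio. In the right ventricle 15.5% of all tested genes were called, 10.5% higher and 4.93% lower in banded libraries, and 0 of 10 members. At an unadjusted limma p under 0.05 there were 2 members, Atf3 and Myc. In the left ventricle 2.74% of all tested genes were called, 2.44% higher and 0.298% lower, and again 0 of 10 members, with 1, Myc, at an unadjusted p under 0.05. With 10 genes, 0 calls is near the left share and not far below the right one, so neither count sets the members apart. For no member were the banded and sham libraries free of overlap in either ventricle, while banded libraries were all higher for 12.6% of tested genes on the right and 22.2% on the left, and all lower for 5.07% and 0.942%. Bringing all libraries to an equal total (TPM) gave 3 calls in the right ventricle, Myc (1.04, limma adjusted p = 0.023), Atf3 (1.89, limma adjusted p = 0.042) and Jun (0.88, limma adjusted p = 0.0497). It also moved the median difference of all tested genes from 0.26 to 0.64. These 3 calls were made on the TPM scale alone, without the second scale asked of the main calls. The share of all tested genes called there was not computed.

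**Figure D1:**
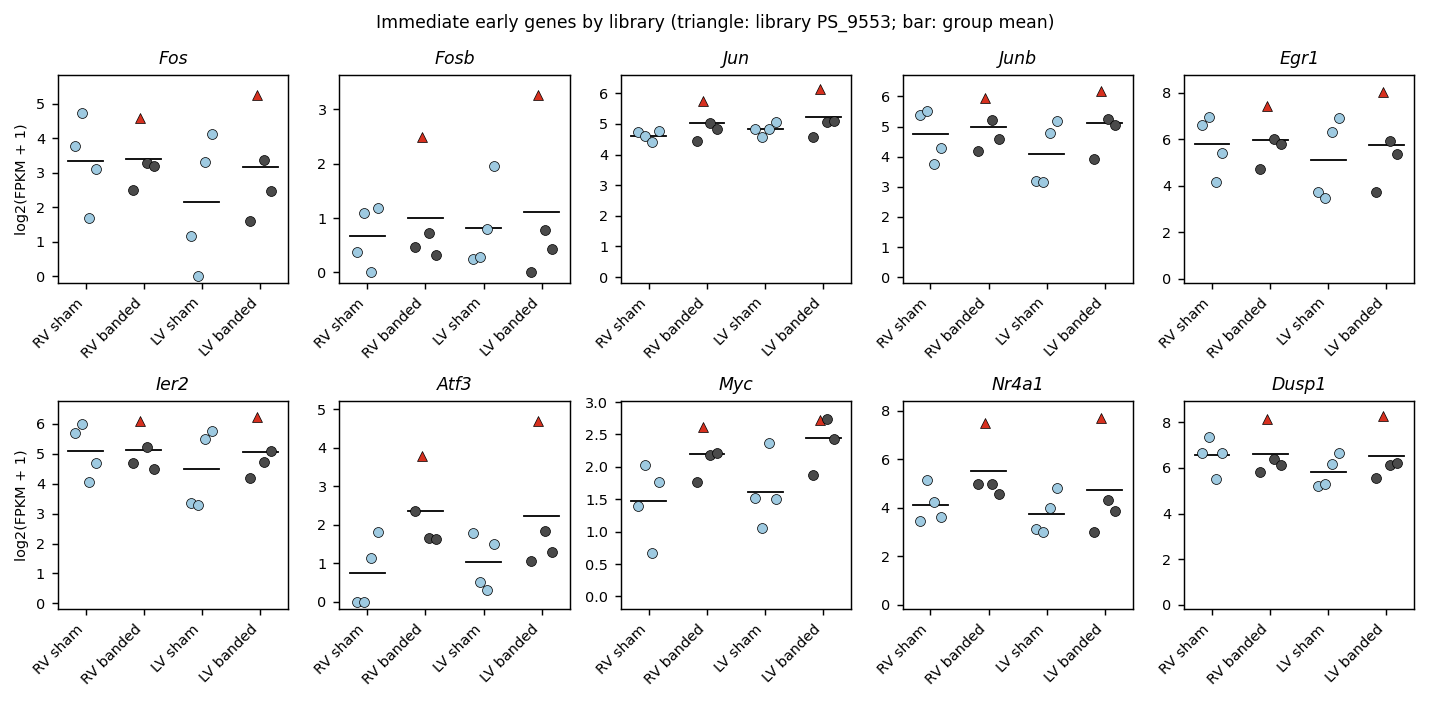
Level of each of the 10 genes in each of the 16 libraries, as log2(FPKM + 1), by ventricle (RV right, LV left) and operation. Points are libraries, bars are group means and red triangles mark the libraries numbered PS_9553, which are the highest banded library in every panel except Myc in the left ventricle.

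The AP-1 subunits showed the overlap plainly. Fos was at 12.7, 25.5, 2.26 and 7.65 FPKM in right sham libraries 1 to 4 and at 4.65, 23.3, 8.73 and 8.17 in right banded libraries PS_9552, PS_9553, PS_9561 and PS_9564. The sham libraries thus held both the highest and the lowest right ventricular value, 11.3-fold apart. These values rest on an estimated 16.65 fragments in sham library 2 and 2.95 in sham library 3, so the fold carries a large counting error. The fitted difference was 0.06 on the log2 scale (SE 0.87, 95% interval -1.78 to 1.91), an interval wide enough to hold a large change either way. Left ventricular Fos was listed at 1.25, 0, 8.96 and 16.6 FPKM in sham and 2.05, 37.1, 9.31 and 4.54 in banded libraries, and the left difference was 1.02 (SE 0.87, limma adjusted p = 0.459).

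Junb was at 40.7, 45.1, 12.5 and 18.6 FPKM in right sham and 17.1, 60.3, 36.4 and 23.1 in right banded libraries. It stood at 8.06, 8.02, 26.4 and 35.2 in left sham and 14.3, 72.1, 37.4 and 32.4 in left banded libraries. The left sham libraries split into a low pair, 1 and 2, and a high pair, 3 and 4, and the banded range enclosed the high pair. Its left banding difference of 1.04 (SE 0.55, limma adjusted p = 0.217) did not pass, and its right difference was 0.24 (SE 0.55).

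Fosb, the least abundant member with a mean of 1.40 FPKM over all libraries, was at 0.30, 1.14, 0 and 1.28 FPKM in the right sham libraries and at 0.38, 4.65, 0.66 and 0.25 in the right banded ones. In the left ventricle it was at 0.19, 0.21, 0.75 and 2.89 in sham and 0, 8.65, 0.73 and 0.34 in banded libraries. In each ventricle 1 banded library, PS_9553, was above every sham library while the other 3 were below the highest sham library. The fitted differences were 0.34 on the right and 0.30 on the left (SE 0.63 each).

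Jun was the steadiest of the AP-1 subunits. Its right ventricular level was 25.5, 23.1, 20.1 and 26.1 FPKM in sham and 20.9, 52.1, 32.0 and 27.6 in banded libraries. On the left it was 27.7, 22.7, 27.5 and 32.5 in sham and 22.7, 69.7, 32.3 and 33.3 in banded libraries. Jun was 23.7 ± 2.70 FPKM in right sham and 33.2 ± 13.4 in right banded libraries (SD, n = 4 each), and its difference of 0.40 (SE 0.29, 95% interval -0.21 to 1.0) did not pass the limma test (adjusted p = 0.336).

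Atf3 had the largest fitted right ventricular difference of the 10 genes, 1.62 (SE 0.69, 95% interval 0.16 to 3.08, limma adjusted p = 0.11). It was listed at 0, 0, 1.22 and 2.5 FPKM in right sham libraries and at 4.15, 12.9, 2.14 and 2.08 in right banded ones. The shallow right sham libraries hold an estimated 0 to 5.2 fragments of Atf3 each, so its low values there carry a large counting error, and the highest sham library was above the lowest pair of banded ones. In the left ventricle Atf3 was at 2.43, 0.43, 0.24 and 1.81 in sham and 1.07, 24.8, 2.57 and 1.46 in banded libraries. Without the libraries numbered PS_9553 the Atf3 difference was 1.14 on the right side and 0.37 on the left.

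Egr1 had the widest spread within groups of the 10 genes. It was at 96.3, 124.7, 17.1 and 41.1 FPKM in right sham and 25.2, 169, 63.3 and 55.1 in right banded libraries. Left sham libraries held 12.4, 9.97, 79.0 and 118 FPKM and left banded libraries 12.4, 264, 59.5 and 40.1. The left sham libraries alone were 11.9-fold apart, and the fitted banding differences were 0.20 on the right and 0.66 on the left, each with an SE of 0.90. Ier2 ordered the sham libraries as Egr1 did in both ventricles, at a lower level, with 51.2, 62.6, 15.6 and 24.7 FPKM in right sham, 24.9, 67.3, 36.5 and 21.7 in right banded, 9.33, 8.80, 44.3 and 53.7 in left sham and 17.4, 74.4, 25.4 and 33.0 in left banded libraries. Its banding differences were 0.02 on the right and 0.58 on the left (SE 0.59 each).

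Nr4a1 was at 9.94, 33.8, 18.0 and 11.2 FPKM in right sham libraries and at 30.3, 180, 30.1 and 22.9 in right banded libraries. The 3 right banded libraries other than PS_9553 lay between 22.9 and 30.3 FPKM, above 3 of the 4 sham libraries and below sham library 2. The right difference was 1.39 (SE 0.81, 95% interval -0.32 to 3.11, limma adjusted p = 0.232), and 0.73 without PS_9553. Left ventricular Nr4a1 was at 7.56, 7.04, 14.8 and 26.7 in sham and 6.99, 205, 18.7 and 13.4 in banded libraries. The left difference of 0.99 became -0.01 without PS_9553.

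Myc, whose spread was the closest to that of other genes of its level, had fitted differences that moved little without PS_9553. It was at 1.62, 3.10, 0.59 and 2.41 FPKM in right sham and 2.42, 5.10, 3.56 and 3.66 in right banded libraries, so that 3 of 4 banded libraries were above every sham library. In the left ventricle it was at 1.86, 1.09, 4.17 and 1.84 in sham and 2.65, 5.59, 5.70 and 4.40 in banded libraries. Again 3 of 4 were above every sham library. Both orders are those of the deposited scale and were not kept after rescaling. The differences were 0.73 (SE 0.33, 95% interval 0.04 to 1.42, limma adjusted p = 0.123) in the right and 0.83 (SE 0.33, 95% interval 0.14 to 1.52, limma adjusted p = 0.097) in the left ventricle. Without PS_9553 they were 0.59 and 0.73. With all libraries, but after rescaling, the differences were 0.60 on the right (limma adjusted p = 0.217) and 0.53 on the left (limma adjusted p = 0.423). The right sham values rest on an estimated 0.642 to 4.57 fragments per library.

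Dusp1 was the most abundant member. It was at 101, 164, 44.4 and 101 FPKM in right sham and 55.8, 281, 82.0 and 69.2 in right banded libraries. Left sham libraries held 35.5, 38.1, 71.4 and 99.7 FPKM and left banded libraries 45.6, 310, 70.0 and 72.5. In both ventricles 3 of the 4 banded libraries lay within the sham range, with PS_9553 above it. The differences were 0.06 on the right and 0.71 on the left (SE 0.57 each).

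As a group, the 10 genes had a median banding difference of 0.29 in the right ventricle, beside 0.26 over all tested genes, and of 0.77 in the left, beside 0.33. After rescaling the medians were 0.13 and 0.42, beside 0.11 and 0.01 over all tested genes. All 10 fitted differences were above 0 in both ventricles as deposited, and 7 in the right and 9 in the left after rescaling. The medians over all tested genes were above 0 too, and the members varied together, so these signs are not 10 separate observations. Left out together, the libraries numbered PS_9553 took the medians to -0.12 in the right ventricle, with 4 of 10 above 0, and to 0.16 in the left, with 7 of 10 above 0. The medians over all tested genes were then 0.32 and 0.31. In that fit no member was called by limma, and the smallest limma adjusted p was 0.107 on the right and 0.243 on the left. PS_9553 was above its banded group mean for all 10 members in both ventricles, so leaving it out lowers every difference by construction. Omission of a high sham library moved Fos, as an example, the other way. Its difference was 0.53 without right sham library 2 and 1.68 without left sham library 4.

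**Figure D2:**
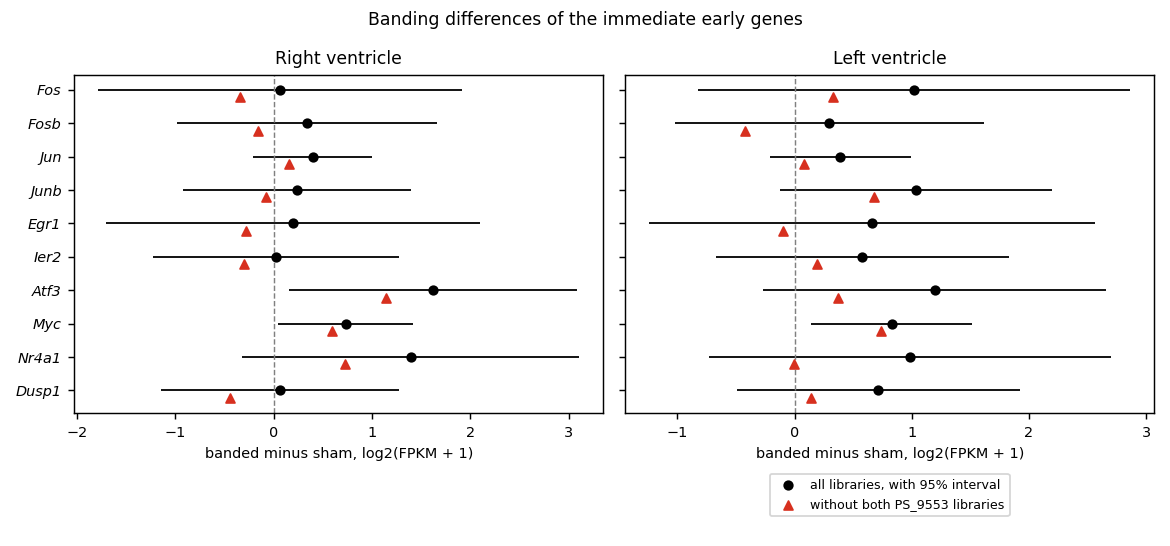
Fitted banded minus sham difference of each of the 10 genes in the right and the left ventricle, on the log2(FPKM + 1) scale. Black points with lines are the fit to all libraries with its 95% interval, and red triangles the fit without both PS_9553 libraries. The triangles lie to the left of the black points for all 10 genes in both ventricles. This follows from the omission, since PS_9553 is above its banded group mean for each gene.

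The remaining comparisons called no member either. The banding effects of the ventricles differed for 3.98% of all tested genes, 3.45% with a lower effect on the right, and 0 of 10 members (smallest limma adjusted p = 0.670, 0 at an unadjusted p under 0.05). Between right and left sham libraries 3.88% of tested genes, 2.55% higher on the right, and 0 of 10 members were called (smallest adjusted p = 0.463), and between right and left banded libraries 1.57% and 0 of 10 (smallest adjusted p = 0.749), with 0 members at an unadjusted p under 0.05 in each. With 10 genes, 0 calls is near the share of all tested genes in each of these comparisons. Fos had the largest right to left difference in sham libraries, 1.18 with an SE of 0.87. These comparisons share their sham or banded groups with the banding tests. None of the 5 comparisons shows the members to be equal between groups, since the 95% intervals of the banding differences were 1.21 to 3.81 wide on the log2 scale.

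The members varied widely among libraries of the same group. The SD within groups, pooled over the 4 groups, was set against the SD that the limma trend gives for genes of the same mean level. This ratio was 5.57 for Egr1, 4.59 for Nr4a1, 4.09 for Fos, 3.61 for Dusp1, 3.45 for Ier2, 3.14 for Junb, 2.76 for Atf3, 2.42 for Fosb, 1.57 for Jun and 1.2 for Myc. It was at least 2 for 8 of 10 members and for 5.25% of all tested genes, and its median was 3.3 against 1.02. Variation within groups was the larger part of the variation of every member. With 4 libraries in each of 4 groups, most of the variation is expected to lie within groups where the groups do not differ. A large share alone therefore does not mark an unusual spread. The share of variation within groups had a median of 82.9% over the 10 genes, from 51.9% for Myc to 96.3% for Fosb, against a median of 59.6% over all tested genes. Among 4 load genes, chosen as known to respond to load, the share was 5.04% for Nppa, 11.6% for Ankrd1, a cardiac ankyrin repeat protein, 19.6% for Nppb and 19.7% for Myh7. Their own ratios to the trend were 1.96, 1.74, 2.62 and 1.65 in that order, with Nppb above Fosb, Jun and Myc.

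**Figure D3:**
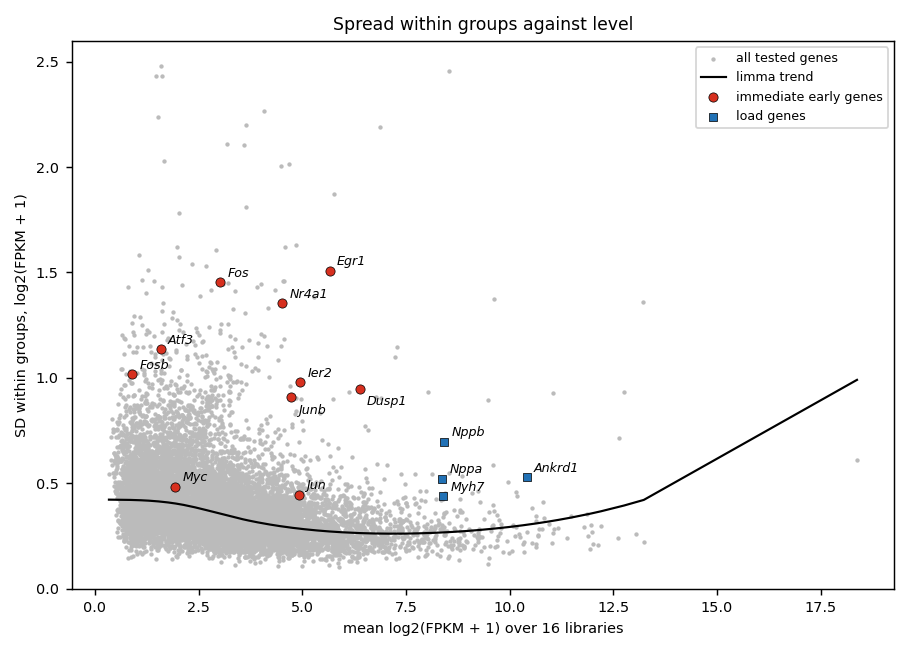
SD within groups (vertical) against the mean level over 16 libraries (horizontal), both on the log2(FPKM + 1) scale, for all 12100 tested genes in grey, with the limma trend as a line, the immediate early genes in red and 4 load genes in blue. Egr1, Nr4a1 and Fos lie farthest above the line, and Myc and Jun lie closest to it among the 10 genes.

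The wide spread was present in sham as well as banded libraries. The median over the 10 genes of the SD of log2(FPKM + 1) was 0.81 in right sham, 0.94 in right banded, 0.82 in left sham and 1.33 in left banded libraries, while the medians over all tested genes were 0.42, 0.33, 0.26 and 0.28. Right sham library 2 was the highest of its group for 7 of 10 members and library 3 the lowest for 8. By the estimate these were the shallowest libraries, with 3.42e+05 and 6.83e+05 fragments. Left sham library 4 was the highest for 8 and library 2 the lowest for 7. Library number 2 was therefore high in the right and low in the left sham group. Leaving out PS_9553, the ratio to the trend was at least 2 for 6 of 10 members and 5.34% of all tested genes, with a median of 2.2. It stayed at 4.67 for Egr1, 3.45 for Fos and 3.09 for Ier2, and came to 0.80 for Jun, 1.30 for Fosb and 1.55 for Atf3.

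In the banded groups a single number, PS_9553, was high in both ventricles. It was the highest right banded library for 10 of 10 members and the highest left banded library for 9 of 10. Over all tested genes the same held for 5.87% on the right and 26.3% on the left. For Atf3, Dusp1, Egr1, Fos, Fosb and Nr4a1 it was at least 2-fold above the next banded library in both ventricles, which was so for 0.223% of all tested genes, 27 in number. Besides the 6 members, 14 of these 27 were on a list of 65 other tested immediate early and fast response genes. Averaged over the 10 genes, PS_9553 deviated from its group mean by 1.38 on the right and 1.63 on the left on the log2 scale. Library PS_9552 was the lowest left banded library for all 10 members and the lowest right banded library for 6.

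**Figure D4:**
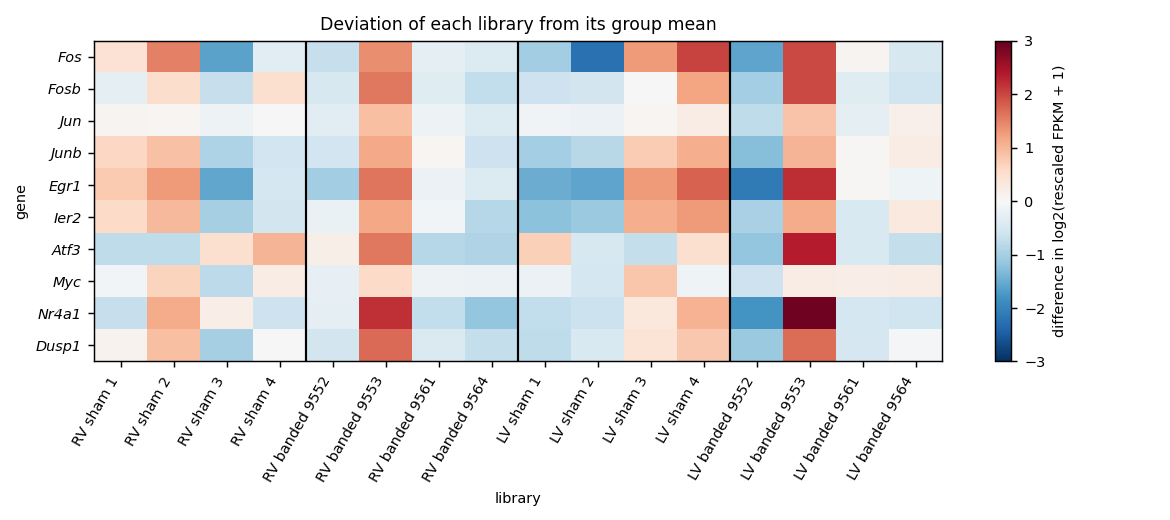
Deviation of each library (columns) from its group mean for each of the 10 genes (rows), on the log2 scale after rescaling. Red is above and blue below the group mean, black lines separate the groups, and the PS_9553 columns are red for all 10 genes in both ventricles.

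Of 8 load genes, PS_9553 was the highest banded library for 0 on the right and for 4 on the left. Nppa was at 2535, 1568, 2205 and 1594 FPKM in right banded libraries PS_9552, PS_9553, PS_9561 and PS_9564, with PS_9553 the lowest. In left banded libraries it was at 605, 1147, 881 and 532 FPKM, with PS_9553 the highest. By the estimate PS_9553 was also the deepest banded library of each ventricle, with 5.86e+06 fragments on the right and 9.51e+06 on the left. Its summed right ventricular markers were the lowest of the banded group for neutrophils (2.34 FPKM over 6 genes, others 4.04 to 18.2), lymphocytes (1.85 over 7, others 2.17 to 5.76) and smooth muscle and pericytes (221 over 7, others 245 to 296). Endothelial markers (420, others 418 to 598) and fibroblast markers (406, others 336 to 506) lay within the range of the others. On the left it was the highest for fibroblast markers (678, others 346 to 584), cardiomyocyte markers (44555, others 36249 to 43676) and lymphocyte markers (3.3, others 2.61 to 3.20), the last the reverse of the right side. The part of depth and of these markers in the PS_9553 values was not tested.

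The members varied together from library to library. Pearson's r between the deviations of a member and the mean deviation of the other 9, over 16 libraries, was 0.97 for Dusp1, 0.93 for Egr1 and Fosb, 0.91 for Fos, 0.90 for Junb, 0.89 for Jun and Nr4a1, 0.88 for Ier2, 0.68 for Myc and 0.50 for Atf3. Over the 14 libraries without PS_9553 it was 0.94 for Fos and Egr1, 0.93 for Dusp1 and Junb, 0.91 for Ier2, 0.83 for Fosb, 0.73 for Jun and Nr4a1, 0.71 for Myc and -0.22 for Atf3. The relation among Fos, Egr1, Dusp1, Junb and Ier2 thus did not rest on PS_9553, and that of Atf3 did. These values describe libraries that share depth and RNA preparation and carry no test.

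Among 7043 other genes with a mean of at least 5 FPKM, those most like the mean deviation of the 10 members were Cyr61 (r = 0.98), Btg2 (0.97), Zfp36 (0.96), Rasd1 (0.93), Errfi1 (0.86), Maff (0.86), Rgs5 (0.85), Apold1 (0.85), Sgk1 (0.84) and Cldn5 (0.84), over 16 libraries. Cyr61 encodes a matricellular protein, Btg2 an antiproliferative factor and Zfp36 a protein that promotes decay of AU-rich mRNAs, and all are known fast response genes. Of these 10 genes 6 were on the list of other immediate early genes, of which 47 were compared. Rgs5 is a pericyte marker, and Cldn5 and Apold1 are expressed in endothelial cells. On the right, PS_9553 was the highest banded library for 0 of 7 smooth muscle and pericyte and 0 of 7 endothelial markers. On the left it was the highest for 2 and 1 of them, where 26.3% of all tested genes were highest in it. The part of these cell types was not tested. Without PS_9553, r was 0.95 for Cyr61, 0.94 for Btg2 and Zfp36, 0.84 for Rasd1, and from 0.57 for Apold1 to 0.79 for Rgs5 for the other 6, and 4 of the 10 kept a place among the 10 highest. The median r of the 47 listed genes was 0.56 with all libraries and 0.15 without PS_9553, beside 0.02 and 0.02 over all 7043.

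**Figure D5:**
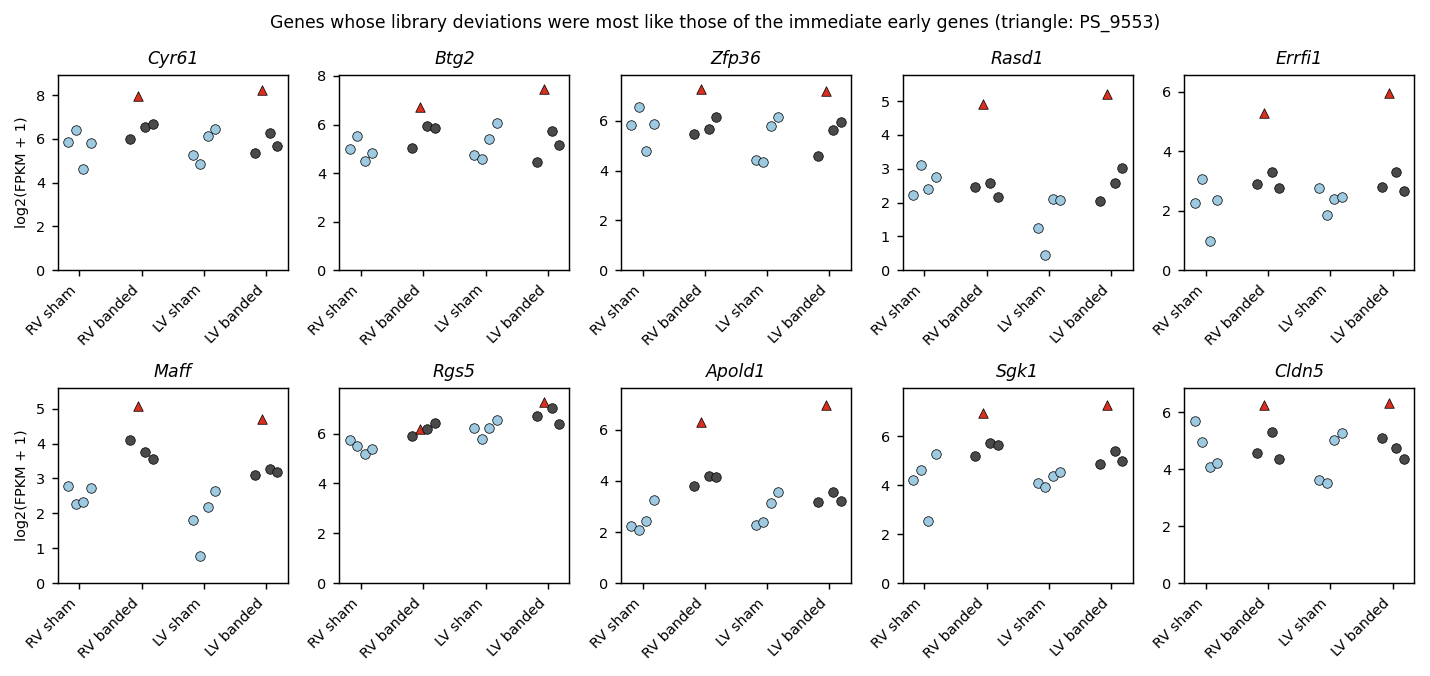
Level of the 10 genes most like the members, as log2(FPKM + 1), in each library by ventricle and operation, with red triangles for PS_9553. Apold1 is between 3.23 and 8.47 FPKM in right sham libraries and at 76.7 and 122 in the PS_9553 libraries.

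The other genes of the immediate early and fast response programme did not all behave like the 10. Of 72 listed, 71 were in the table and 65 were tested. In the right ventricle 14 rose and 1 fell with banding, where 10.5% and 4.93% of all tested genes did, and their median difference was 0.69 (0.56 after rescaling). Rcan1, a regulator of calcineurin, rose from 29.4 ± 10.7 to 129 ± 39.5 FPKM, and its log2 difference of 2.11 (SE 0.33) had a limma adjusted p of 0.000714. Bhlhe40, a transcriptional repressor of the circadian clock, rose from 14 ± 3.02 to 43.6 ± 2.63 FPKM, and Plk2, a polo-like kinase, from 7.27 ± 2.92 to 20.8 ± 4.86 FPKM (SD, n = 4 each). Dusp10, a MAP kinase phosphatase like Dusp1, fell from 5.61 ± 1.15 to 2.82 ± 0.73 FPKM. Without PS_9553 there were 11 that rose and 0 that fell, where 7.58% of all tested genes rose, and 9 of the 15 calls held. Rcan1, Bhlhe40 and Plk2 were among the 9, with differences of 2.2, 1.58 and 1.53, and Dusp10 was not (-0.73, limma adjusted p = 0.069).

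In the left ventricle the same list held 0 genes that rose and 1 that fell, where 2.44% and 0.298% of all tested genes did. The 1 that fell was Mycn, with a log2 difference of -1.06 (SE 0.34). Without PS_9553 Mycn was at -0.90 (limma adjusted p = 0.104) and was not called, in a fit where the left calls over all tested genes went from 331 to 38. The banding effect was lower in the right than in the left ventricle for 1 listed gene, where 3.45% of all tested genes were called so. This was Rgs2, a regulator of G protein signalling, with a difference of -1.83 (SE 0.39). Between sham ventricles Cebpd and Cebpb, leucine zipper factors of the C/EBP family, were higher on the right by 1.46 (SE 0.31) and 1.11 (SE 0.27). Of all tested genes 2.55% were called higher on the right there.

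Of the AP-1 and small Maf family, 15 genes were tested, 5 of them members. In the right ventricle 3 rose, none of the 10 and all already among the 14 above, where 10.5% of all tested genes rose. Mafk rose from 14.2 ± 5.18 to 46.8 ± 7.04 FPKM, a difference of 1.70 (SE 0.23, limma adjusted p = 0.000291). Maff and Fosl2 rose by 1.59 (SE 0.41) and 1.22 (SE 0.34), and without PS_9553 Mafk alone of the 3 was called. None of the 15 was called in the left ventricle by limma, where the median difference was 0.67 as deposited and 0.30 after rescaling. Of 27 tested kinases and transcription factors that act upstream of these genes, 0 rose and 2 fell in the right ventricle, Mapk14, the p38 alpha kinase, by 0.62 (SE 0.15) and Map2k2, the kinase MEK2, by 0.51 (SE 0.17), and 0 were called in the left. Over all tested genes 4.93% fell in the right ventricle. Heat shock genes, another set that responds to acute stress, held 0 of 14 that rose and 1 that fell in the right ventricle, Cryab, and 2 that rose in the left, Hspb7 and Hsp90ab1, where 2.44% of all tested genes rose, by 1.03 (SE 0.15) and 1.0 (SE 0.21). Of these 5 upstream and heat shock calls, Mapk14 alone held without PS_9553, but the log2 differences of the others moved little, to 1.02 for Hspb7, 0.98 for Hsp90ab1, -0.66 for Cryab (also -0.66 with all libraries) and -0.47 for Map2k2. By contrast all 8 load genes rose in the right ventricle with and without PS_9553, and 5 of 8 rose in the left, 3 without PS_9553. Of all tested genes 10.5% rose in the right ventricle and 2.44% in the left, and 7.58% and 0.264% without PS_9553.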

How the data were processed

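PolyA RNA from 16 ventricular libraries, 4 in each of 4 groups, was analysed. Per the submitters' processing notes, FastQC 0.11.5, STAR 2.5.3a, Cufflinks 2.2.1, Cuffdiff and R 3.3.1 were used with the mm9 build. The values deposited by the authors are FPKM per gene and library, and the authors' table of group values was not used. Read counts were not analysed here, so depth was estimated from the smallest steps of FPKM times transcript length among 6485 genes with 1 transcript, assuming fragments of 200 nt. Estimated fragments cover counting error only.

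Values were taken as log2(FPKM + 1), which understates changes of low genes. The 12100 genes that reached 1 FPKM in 4 or more of the 16 libraries entered 1 limma 3.58.1 fit (R 4.3.3, trended prior) of 4 group means, with 5 comparisons and Benjamini-Hochberg adjustment over all tested genes. Calls needed an adjusted p of at most 0.05 in the same direction as deposited and after division by median-ratio scale factors from 8211 genes. The p-values rest on the spread among the sequenced samples, and this spread may be technical. Listed zeros entered as 0.

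The members, gene lists, marker lists and tests were chosen with earlier results of these data known. Named genes were all 10 members, from each gene list up to 4 called genes per direction with the smallest p in the right ventricular comparison and up to 2 in each other comparison, the 10 genes of highest likeness, and the load genes. Promoter sequences came from RefSeq on GRCm38.p6 and no coordinates of the mm9 files were used.

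Same-numbered right and left libraries were not treated as pairs. Correlations of their deviations over genes lay between -0.0964 and 0.160. Alternatives were pseudocounts of 0.1 and 5, no filter or one at 5 FPKM, TPM scaling, quantile normalization, either scale alone, only the libraries compared, a robust prior, library weights, omission of libraries that list Rn45s at 0, a correction for transcript length, a replicate block and omission of each library. Omission of both PS_9553 libraries was added after the data were seen.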

Additional observations from a re-analysis of the deposited data

Results flagged for a closer look

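In 7 of 40 sets of 4 libraries (10 genes in 4 groups), the gap between the highest library and the next was a larger share of the whole range of the group than Dixon's critical value for 4 samples at 95%. The gaps were taken on FPKM, and on the log2 scale they would be smaller shares of the range and need not pass. Chance gives such a gap at either end of the range in about 1 in 20 sets of normally distributed values, and less often at the high end alone. FPKM are skewed and the 40 sets share libraries, so that rate does not hold here. All 7 were banded sets in which PS_9553 was the highest. Fosb stood at 4.65 FPKM in the right and 8.65 in the left PS_9553 library, with the next banded libraries at 0.66 and 0.73. Nr4a1 stood at 180 and 205, with the next at 30.3 and 18.7. Dusp1 stood at 281 and 310, with the next at 82.0 and 72.5. Atf3 was set apart in the left ventricle only, at 24.8 with the next at 2.57, and its right value of 12.9 left a gap of 0.808 of the range. No sham library of any of the 10 genes was set apart in this way.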

How the results depend on the processing

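No member was called in any of the 5 comparisons, and 119 of 120 alternative counts gave the same. The exception was TPM scaling, which gave 3 members in the right ventricle, called on that scale alone. Another 3 counts, from omission of the libraries that list Rn45s at 0, leave 1 left banded library and say nothing of stability. In the right ventricle that omission leaves 2 banded libraries and gave 0 members (smallest limma adjusted p = 0.074). Of 1215 alternative values of single members, 5 had a limma adjusted p of at most 0.05. They were Jun, Atf3 and Myc on the right under TPM scaling, given above, and Atf3 (1.98, adjusted p = 0.021) and Myc (0.68, adjusted p = 0.044) on the left with library weights, which were not called because they passed on the deposited scale only. Uncalled differences did change sign between settings. Leaving out each library in turn gave 0 members in every comparison, with smallest adjusted p-values of 0.067 on the right side and 0.052 on the left. A replicate block on the library number also gave 0 members in each comparison. The correlation of same-numbered libraries was above 0.1 in 1 of 8 pairs, PS_9552, and each of the other 7 numbers correlated better with another library. The number of members at least 2 times above the trend in spread was 8, and between 6 and 8 under the alternatives. Depth limits Atf3, Fosb and Myc most, with at most 5.2 estimated fragments in any right sham library, so their values in that group carry a large counting error.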
